A study of Mus musculus with 2 samples.

Results

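The GDNF signalling system was read here as 10 genes, the ligand genes Gdnf, Nrtn, Artn and Pspn, the co-receptor genes Gfra1, Gfra2, Gfra3 and Gfra4, the receptor kinase gene Ret and the transcription factor gene Etv5. They form a fixed list of genes that take part in spermatogonial stem cell maintenance, out of 21887 protein-coding genes, and all 10 were found in the RefSeq gene table of mouse build GRCm38. For each gene, every ARID4B interval that overlapped the gene record or lay within 50 kb of it was taken, with the score the authors gave it. ARID4B belongs to the SIN3 complex, which removes acetyl groups from histones, and its position on chromatin was measured by ChIP-seq with an antibody against it. The chromatin came from 1 pool of 108 testes of wild type mice, of hybrid C57BL6/J and 129/SvEv strain, at postnatal day 1.5. The ChIP library had 1 input library, made without antibody, as its control, so no value below has a replicate. Whole testes were used, so no interval can be assigned to a cell type, and binding in few cells cannot be told apart from weak binding in many.

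GDNF is secreted by somatic cells of the testis, Sertoli cells among them, and keeps spermatogonial stem cells renewing themselves. It binds GFRα1, which is anchored in the membrane and brings the ligand to the tyrosine kinase RET. The other ligands have preferred partners of their own, neurturin with GFRα2, artemin with GFRα3 and persephin with GFRα4, and all of them signal through RET. ETV5, an ETS-family transcription factor made in Sertoli cells and in spermatogonia, is induced by GDNF in cultured germ cells, and mice without it lose their spermatogonial stem cells.

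Intervals lay over the starts of Gdnf, Nrtn and Etv5, 3 of the 7 genes with a listed start. Of all protein-coding genes with a listed start, 24.3% had one. None of the 5 receptor genes had an interval within 1 kb of a record end, against 27.1% of all protein-coding genes. No start is listed for Gfra2, Gfra3 and Ret, and so small a list does not tell these shares apart. The promoter sequences of Gdnf, Nrtn and Etv5 are printed because they lay under the intervals. That of Gfra1, which had no interval near it, is printed beside them. Each runs 5′ to 3′ on the gene's own strand, from 250 bases before the start to 50 bases from it onwards, and comes from the RefSeq promoter table of GRCm38.p6. Capitals mark the GC box (GGGCGG, or CCGCCC on the other strand) and the CCAAT box (CCAAT, or ATTGG on the other strand), and no 2 of these matches overlapped.
Gdnf, chr15:7809798-7810097, plus strand: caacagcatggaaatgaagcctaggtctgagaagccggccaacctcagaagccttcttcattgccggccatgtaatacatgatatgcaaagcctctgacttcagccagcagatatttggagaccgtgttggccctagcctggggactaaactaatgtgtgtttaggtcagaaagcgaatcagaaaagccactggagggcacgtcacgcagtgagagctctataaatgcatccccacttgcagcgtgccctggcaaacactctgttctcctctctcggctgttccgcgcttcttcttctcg
Nrtn, chr17:56757499-56757798, minus strand: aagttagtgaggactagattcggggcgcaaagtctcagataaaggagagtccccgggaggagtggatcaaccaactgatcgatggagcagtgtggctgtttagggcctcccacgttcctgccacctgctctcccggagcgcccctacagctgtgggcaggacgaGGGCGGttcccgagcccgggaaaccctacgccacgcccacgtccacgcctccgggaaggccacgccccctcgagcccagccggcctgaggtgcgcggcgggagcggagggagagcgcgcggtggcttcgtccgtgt
Etv5, chr16:22439521-22439820, minus strand: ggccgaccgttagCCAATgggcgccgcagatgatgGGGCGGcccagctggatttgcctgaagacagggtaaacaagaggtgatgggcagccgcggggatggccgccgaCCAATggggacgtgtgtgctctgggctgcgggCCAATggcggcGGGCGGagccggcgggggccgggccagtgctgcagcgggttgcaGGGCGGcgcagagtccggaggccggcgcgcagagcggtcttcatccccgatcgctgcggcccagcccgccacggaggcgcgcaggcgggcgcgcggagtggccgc
Gfra1, chr19:58455349-58455648, minus strand: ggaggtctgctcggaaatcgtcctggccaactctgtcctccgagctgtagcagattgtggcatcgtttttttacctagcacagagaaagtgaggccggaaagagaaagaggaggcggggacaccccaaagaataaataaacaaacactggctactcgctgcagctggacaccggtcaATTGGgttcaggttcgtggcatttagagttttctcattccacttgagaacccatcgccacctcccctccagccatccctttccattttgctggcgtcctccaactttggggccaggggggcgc

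The Gdnf window held neither motif, the Nrtn window held 1 GC box, and the Etv5 window held 3 GC boxes and 3 CCAAT boxes. The Gfra1 window held 1 CCAAT box and no GC box. The listed start of Gfra1, chr19:58455398, lies inside the gene record, whose upper end is chr19:58455946. The printed starts of Gdnf, Nrtn and Etv5 lie at record ends. Over the outermost starts of all 17492 protein-coding genes in the table, 46.3% of windows held a GC box and 39.2% a CCAAT box. A GC box was present in 76.1% of the windows whose start lay under an interval and in 37.3% of the others. For the CCAAT box the shares were 35.5% of covered and 40.3% of uncovered windows. A match is a match of letters only. No factor's binding can be read from a match or its absence.

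Across the whole list there were 6632 intervals on 20 chromosomes, none overlapping another, with a median width of 1084 bp and a median score of 125.0. The lowest score was 70.02 and the highest 1760.61. Read numbers are unknown for both libraries, and so are the depth behind an interval and the weakest binding that could have been called. Input DNA was the only control, and whether a given interval depends on ARID4B was not tested.

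Of the 10 genes, 5 had an interval in the record or within 50 kb of it, against 52.3% of all protein-coding genes. These 5 genes were Gdnf, Nrtn, Artn, Gfra3 and Etv5, and 7 intervals were read for them in all. Only 4 of the 7 had the gene itself as the nearest protein-coding gene, by the distance of the interval's midpoint from a gene end. They belonged to Gdnf, Nrtn and Etv5. The same 3 genes had an interval within 1 kb of an end of the record, a share of 3 in 10 set against 27.1% of all protein-coding genes. The 50 kb limit fell between Gfra3, whose nearest interval was 38.6 kb away, and Pspn, whose nearest was 63.4 kb away. As a group the genes thus stood close to the background by either measure. With intervals above the median score alone the same 3 genes had one within 1 kb of an end, against 14.8% of all protein-coding genes.

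**Figure D1:**
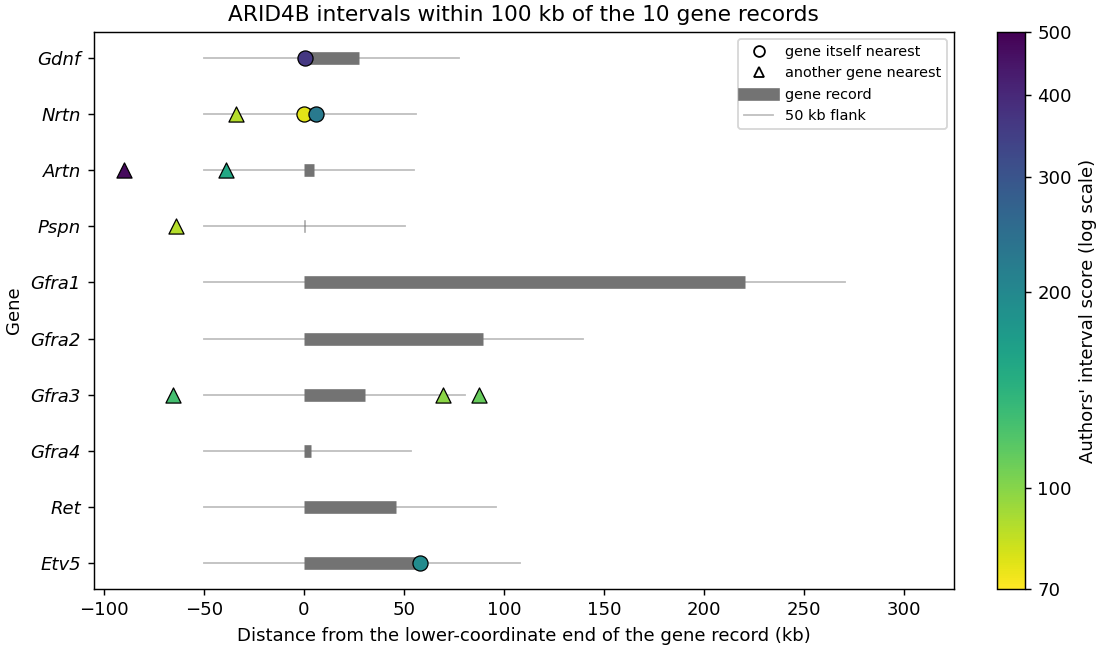
Positions of ARID4B intervals within 100 kb of the 10 gene records, in kb from the lower-coordinate end of each record (thick grey bar, thin line for the 50 kb flank). Circles are intervals nearest to the gene itself, triangles are intervals nearest to another gene, and colour gives the authors' score on a log scale; circles are seen at Gdnf, Nrtn and Etv5 only.

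Gdnf, which encodes the ligand that maintains spermatogonial stem cells, had the highest score of the 7 intervals. Its interval was at chr15:7809816-7811497, 1682 bp wide, with a score of 362.69. This was rank 318 of 6632, with 95.2% of intervals scoring lower and 88.7% being narrower. It lay over the outermost of the 2 starts listed for Gdnf, at chr15:7810048, and held 282 of the 300 bases of the promoter window printed above. From that start it reached 232 bp upstream and 1449 bp downstream into the record (chr15:7810048-7837580). The second listed start, at chr15:7813727, lay 2230 bp beyond the interval.

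The interval at Gdnf sat farther into the gene than most. Its midpoint was 608 bp downstream of the start, against a median of 197 bp (quartiles 56 and 327 bp) over the 4079 protein-coding genes whose outermost start lay under an interval. Of those starts 95.4% had a midpoint less far downstream. The next nearest protein-coding gene end, that of Wdr70, was 62.4 kb from its midpoint. Among genes of every type, the nearest end of another one was 30.3 kb from the interval. Within 250 kb of the record there was 1 other protein-coding gene and no other interval. In score alone, the protein-coding genes nearest to Gdnf were Prr7 with 362.99 and Calr, which encodes the chaperone calreticulin, with 362.64.

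Nrtn, the neurturin gene, had 2 intervals of its own and 1 in its flank. The higher-scoring one, at chr17:56756757-56757952 (1196 bp, score 223.28, rank 1117), lay over the start at chr17:56757548 and held all 300 bases of the printed window. It reached 404 bp upstream and 791 bp downstream, and its midpoint was 194 bp downstream of the start, close to the median of 197 bp. The lower-scoring one, at chr17:56751213-56751969 (757 bp, score 76.59, rank 6077), lay over the other end of the record, where transcription runs out. Its score was near the lowest of the list, with 8.37% of intervals below it. No end of another gene lay within 11.9 kb of this interval, so Nrtn was the sole annotated gene there.

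Intervals at both ends of a gene were uncommon in the list. The count that follows was not among the planned results. Its pattern is that seen at Nrtn, so its share is a description and no support for Nrtn. Among 2871 protein-coding genes with an interval over the outermost start, a record over 5 kb and no other gene end within 1 kb of the far end, 34 (1.18%) had a further interval there, Nrtn among them. The interval in the flank of Nrtn, at chr17:56716420-56718362 (1943 bp, score 87.02), was 33.0 kb from the record. It overlapped the records of Vmac and of Ndufa11, a gene of respiratory complex I, and its midpoint was 308 bp from an end of Vmac.

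**Figure D2:**
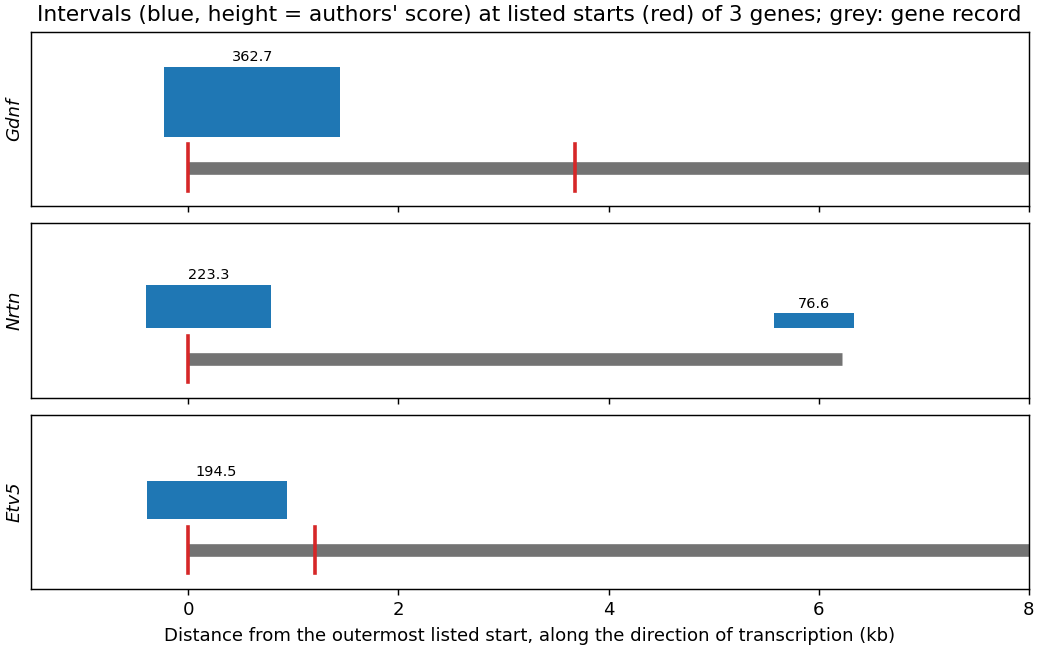
Intervals at Gdnf, Nrtn and Etv5 along the direction of transcription, in kb from the outermost listed start, with interval height and label giving the authors' score, red marks the listed starts and grey bars the gene records (shown up to 8 kb). Each of the 3 outermost starts lies under an interval, the second starts of Gdnf and Etv5 do not, and Nrtn has a further low-scoring interval (76.59) at its far end.

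Artn and Pspn, the genes of artemin and persephin, had no interval of their own. For Artn (chr4:117925908-117930795) the only interval within 50 kb was at chr4:117886574-117887822 (1249 bp, score 154.01, rank 2312), which lay 38.1 kb from the record. Its midpoint was 135 bp from an end of Atp6v0b, a gene of the vacuolar proton pump. For Pspn (chr17:56999313-57000105), the shortest of the 10 records at 793 bp, the nearest interval was outside the limit, at chr17:56935417-56935903 (487 bp, score 87.26) and closest to Mllt1. An interval at least as far away was the nearest one for 50.5% of all protein-coding genes in the case of Artn and for 43.7% in that of Pspn. Both distances were thus near the middle of those of all genes. Nrtn and Pspn both lie on chromosome 17, with 242 kb between the records, and they shared no interval.

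None of the 4 co-receptor genes had an interval in the record or within 1 kb of it, against 30.7% of all protein-coding genes. So small a list does not tell these shares apart. Gfra1, which encodes the partner of GDNF on spermatogonial stem cells, was the farthest from any interval of all 10 genes. Its record is long (chr19:58235581-58455946, 220366 bp), and the nearest interval was 404 kb from it, at chr19:58860379-58861450 (score 94.12) and closest to Hspa12a. For 18.3% of protein-coding genes the nearest interval was at least as far. For Gfra2 (chr14:70890107-70979840), the neurturin co-receptor gene, it was 124 kb away, at the adaptor gene Dok2, with a score of 81.25. For Gfra4 (chr2:131039632-131043088), the persephin co-receptor gene, it was 101 kb away and closest to Hspa12b, with a score of 79.29. The corresponding shares of protein-coding genes at least as far from an interval were 33.8% for Gfra2 and 36.7% for Gfra4.

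Gfra3 (chr18:34689898-34720387), the artemin co-receptor gene, was the one co-receptor gene with an interval within 50 kb. That interval, at chr18:34759035-34760149 (1115 bp, score 98.8, rank 4543), was 38.6 kb from the record and had its midpoint 761 bp from an end of Fam53c. Ret (chr6:118151748-118197744), the kinase gene through which all 4 ligands signal, had none within 50 kb. Its nearest interval was 221 kb away, closest to Bms1, a ribosome biogenesis gene, with a score of 131.85, and for 25.8% of protein-coding genes the nearest was at least as far. Set out by ligand and partner, Gdnf had an interval over its start and Gfra1 had none, and Nrtn had one over its start and Gfra2 had none. Artn and Gfra3 each had only an interval nearest to another gene, and Pspn and Gfra4 had none within 50 kb. An interval within 1 kb of an end was thus found in 0 of the 5 receptor genes, against 27.1% of all protein-coding genes, and so small a list does not tell these shares apart.

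Etv5 had a single interval, over its outermost start. It was at chr16:22438634-22439967 (1334 bp, score 194.47, rank 1486), with 77.6% of intervals scoring lower. It held all 300 bases of the printed window around the start at chr16:22439570, which is the upper end of the record (chr16:22381313-22439570), and reached 397 bp upstream and 936 bp downstream. The midpoint was 270 bp downstream of the start, and 65.3% of covered starts had a midpoint less far downstream. A second start, at chr16:22438368, lay 266 bp beyond the interval. The next nearest protein-coding gene end, that of the diacylglycerol kinase gene Dgkg, was 27.3 kb from the midpoint.

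**Figure D3:**
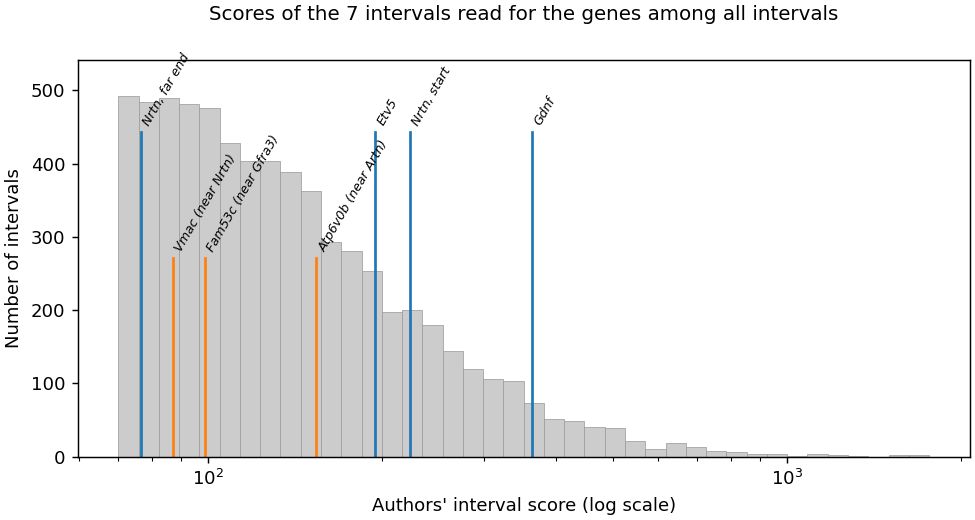
Number of intervals by the authors' score, on a log axis, over all 6632 intervals, with vertical lines at the 7 intervals read for the genes. Blue lines (Gdnf at 362.69, the Nrtn start at 223.28, Etv5 at 194.47 and the Nrtn far end at 76.59) are intervals nearest to the gene itself and orange lines those nearest to Vmac, Fam53c and Atp6v0b.

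The promoter table held starts for 7 of the 10 genes, and Gfra2, Gfra3 and Ret were not among them. Of these 7 genes 3 had an interval over a start, against 24.3% of the 17492 protein-coding genes in the table. The 3 genes left out had no interval in the record, and so small a list does not tell these shares apart. The windows differed widely in base composition. The G+C share of the outermost window was 74.0% in Etv5, 66.7% in Nrtn and 51.7% in Gdnf, all under an interval. Without an interval it was 61.3% in Artn, 57.3% in Pspn, 55.7% in Gfra4 and 54.0% in Gfra1. The listed starts of Artn and Gfra1 lie inside their records, so these windows are not at the record ends. Over all outermost starts the median was 65.0% for covered and 53.3% for uncovered ones.

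The number of CpG dinucleotides, set against the number expected from the C and G content, gave the same order at the top. Observed over expected CpG was 0.938 in Etv5, 0.842 in Nrtn and 0.552 in Gdnf. It was 0.602 in Artn, 0.549 in Gfra1, 0.207 in Pspn and 0.0868 in Gfra4, none of which was covered. Coverage by ARID4B followed this ratio across all genes. In the lowest decile 1 of 1750 outermost starts lay under an interval (0.0571%), and in the highest 898 of 1750 did (51.3%). Etv5 was in decile 9, where 50.1% of starts were covered, and Nrtn in decile 8, where 43.2% were. Gfra4 in decile 1 and Pspn in decile 3, where 1.03% were covered, lay in the range where an interval over a start was rare.

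Gdnf and Gfra1 fell in the same decile, the fifth, where 280 of 1749 starts (16%) were covered. Their ratios were 0.552 and 0.549, and the start of Gdnf had an interval and the nearest one to the start of Gfra1 was 405 kb away. The Gfra1 ratio is that of a window inside the record, and the Gdnf ratio that of a window at the record's end. Of the 1682 bp of the Gdnf interval 282 lay in that window, and the CpG ratio under the rest was not measured. Among the 280 covered starts of this decile, the score of 362.69 at Gdnf ranked 11, against a median of 123.45 (quartiles 92.06 and 176.97). Nrtn ranked 152 of 755 in its decile, where the median was 132.4, and Etv5 ranked 252 of 876, where it was 141.73. The second listed start of Gdnf, which lay outside the interval, had a higher CpG ratio than the covered one, at 1.11. The second start of Etv5, also outside, had 0.727.

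**Figure D4:**
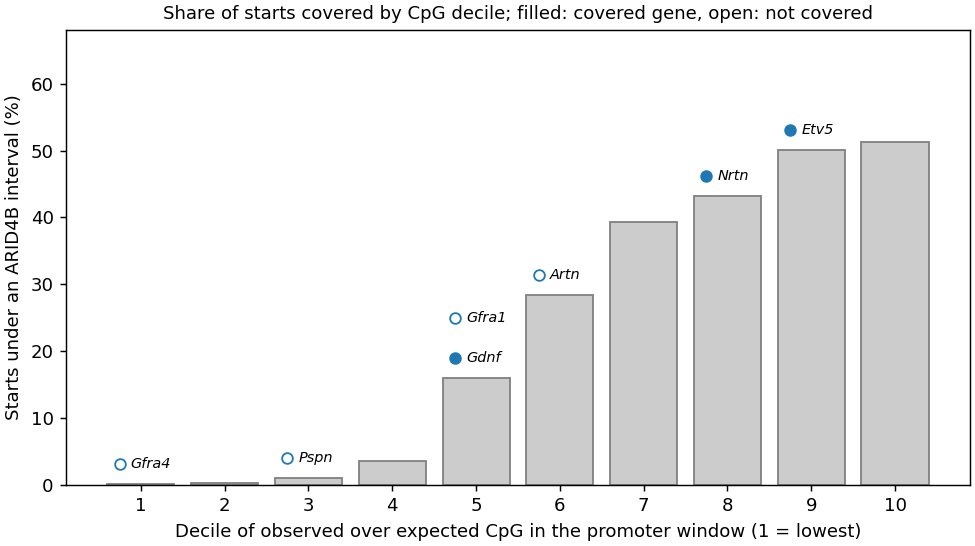
Share of outermost starts under an ARID4B interval (%, grey bars) in each decile of observed over expected CpG of the 300-base promoter window, over 17492 protein-coding genes, with the 7 genes that have a listed start placed above the bar of their decile. Filled points are covered genes and open points are not; Gdnf is covered in decile 5, where 16% of starts are.

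Other parts of the pathway were read from 85 further genes grouped by role, a list drawn up with earlier results of these data known. An interval lay within 1 kb of an end in 49 of them (57.6%), against 27.1% of all protein-coding genes. The median of the best score at these ends was 154.55, against 132.24 over the 5930 protein-coding genes that had one. Anywhere in the record or within 1 kb of it, 56 of the 85 had an interval, against 30.7% of all protein-coding genes. An interval at an end need not lie over a listed start. Among the best-scoring genes named below, Jag1, Klf4, Akt1 and Dusp6 had no listed start under an interval, and others, such as Irs2 and Pik3r1, had one. The list mixes housekeeping signalling enzymes with genes of restricted expression, and expression was not measured here. The shares were not matched for the CpG ratio, which coverage followed across all genes. With few genes in a role, its share is a description only.

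Kinase and GTPase genes that carry the signal inside the cell had the highest share of the 6 roles. Of 17 SRC, PI3K-AKT and RAS-MAPK genes 14 had one (82.4%), the best being Pik3r1, a regulatory subunit gene of PI3 kinase (437.36), the kinase genes Map2k2 (227.83) and Akt1 (212.93), and Pik3r2, another regulatory subunit gene (212.83, shared with an end of Mast3). The interval at Hras was shared with an end of Lrrc56. The 3 without were Src, Pik3cb and Nras. Of 25 adaptor and docking protein genes that act at RET, 14 had an interval (56.0%). This count takes in Shc1, shared with an end of Pygo2, and Frs3, shared with ends of Tomm6 and Prickle4. The best were at the insulin receptor substrate gene Irs2 (688.93), Plcg1, the phospholipase gene (419.87), Pdlim7 (373.42) and Gab1 (321.93). The 11 without were Shc3, Grb2, Grb7, Grb10, Dok1, Dok4, Dok5, Dok6, Nck1, Cblc and Shank3, and of these Grb10 and Shank3 had one inside the record.

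Other receptors that bind GDNF ligands or act beside RET had intervals at 3 of 7 genes (42.9%, against 27.1% of all protein-coding genes). They were Gas1, whose membrane-anchored product is related to the GFRα proteins (329.95), Ncam1, a neural adhesion molecule that can serve as a GDNF receptor without RET (317.45), and the N-cadherin gene Cdh2 (74.86). Gfral, Sdc3, Sorl1 and Met had none. The scores at Gas1 and Ncam1 were both below that of Gdnf and above those of Nrtn and Etv5.

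Among 15 genes reported to respond to GDNF in spermatogonial stem cells, 5 had an interval at an end (33.3%), near the background. They were Klf4 (236.94), Mycn (134.11), Egr3 (126.62), Id4 (109.91) and Pou3f1 (91.64). Mycn had a higher-scoring interval inside its record, with 497.68, the highest score at any of the 15. The 10 without were Bcl6b, Lhx1, T (brachyury), Nanos2, Egr2, Cxcr4, Ccnd2, Tspan8, Eomes and Brca2, and of these Ccnd2 (180.3) and Egr2 (91.37) had one inside the record. The nearest interval to Nanos2, a gene that holds male germ cells back from differentiation, was 2.81 kb from its record, and that to Bcl6b was 4.95 kb from its own.

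Of 9 relatives of Etv5 and genes linked to it, 6 had an interval (66.7%), against 27.1% of all protein-coding genes. These were the feedback inhibitor genes Spry2 (203.62), Dusp6 (202.33), Spry1 (111.89) and Spry4 (98.18, shared with an end of Arhgap26), the chemokine gene Cxcl12 (174.63) and the ETS gene Etv1. The interval at Etv1 lay 0.73 kb outside the record and scored 70.14, at the bottom of the list. Etv4, the other close relative, had none, its nearest interval lying 104 kb away, and Ccr1 and Cxcl5 had none. Within this ETS subfamily Etv5 thus had the highest score, 194.47 against 70.14 at Etv1.

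Of 12 genes known to regulate Gdnf in Sertoli cells, 7 had an interval at an end (58.3%), against 27.1% of all protein-coding genes. The best were at Wt1 (626.23), Jag1 (260.44), Notch1 (213.47) and Hes1 (197.68). Fshr, Nr5a1, Gata4, Rbpj and Hey1 had none at an end. Of these, Gata4, Nr5a1 and Rbpj had one inside the record, with best scores of 894.01, 695.01 and 106.97. The interval in Rbpj lay over a listed start. Sox9, with 178.8 at an end, had a higher-scoring interval inside its record (325.04). For Fshr, the receptor gene of the hormone that raises Gdnf expression, the nearest interval was 543 kb away.

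**Figure D5:**
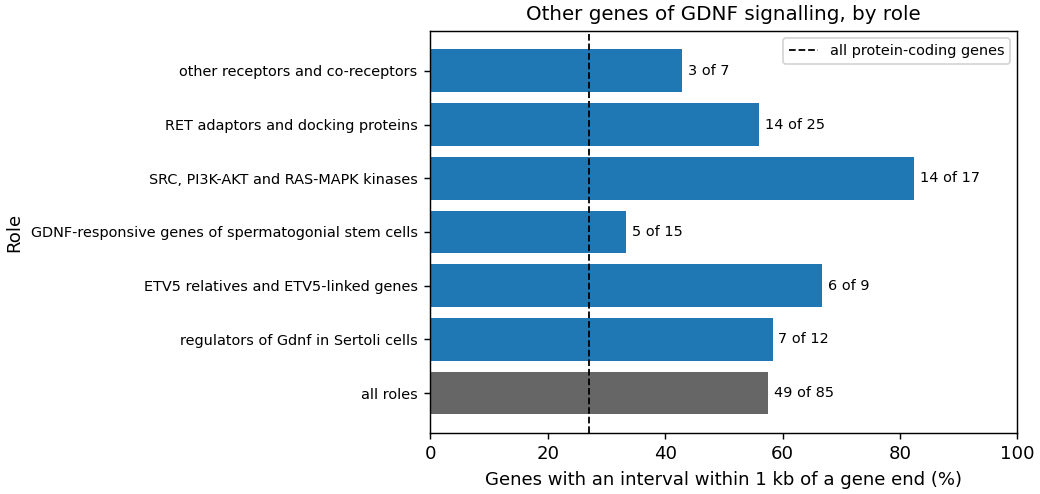
Percent of the 85 further genes with an interval within 1 kb of a gene end, by role, with the count beside each bar. The dashed line is the share among all protein-coding genes (27.1%); the kinase group stands at 82.4% and the GDNF-responsive genes at 33.3%.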

How the data were processed

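The authors deposited 1 list of ARID4B ChIP-seq intervals, made with BWA and MACS per the submitters' processing notes. The sources used here do not give their versions, settings or filters. The name of the list speaks of p-values, but the lowest deposited score is 70.02 and no scale is stated. The score was used only to rank intervals within the list, and a higher score is not a measure of stronger binding. The notes name mm9 and the name of the list mm10. Read as GRCm38, 59.4% of intervals lay over a listed start, against 1.79 and 1.6% when moved by 5 kb either way, so GRCm38 was used. Positions count from 1.

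The 10 genes, the 85 pathway genes and their roles were chosen with earlier results of these data known, and a few other pathway genes are not reported here. Intervals were matched by an overlap of at least 1 bp with RefSeq gene records (protein-coding genes, assembled chromosomes), which give no exons or introns here, and with starts of the RefSeq promoter table. The outermost start is the most upstream one listed. There is no test: 1 library allows none. Named were all 10 genes, the gene nearest to each interval, the 4 best and all unmarked genes of each role, and the 2 genes nearest to Gdnf in score. Other named genes were chosen after their values were seen. Python 3.11.15, pandas 2.3.3 and numpy 2.4.6 were used, and the overlap step was tested on simulated data. Alternatives were other flanks and windows, midpoints, intervals above the median score, nearest genes only, whole records and, chosen after seeing the data, every listed start.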

Additional observations from a re-analysis of the deposited data

How the results depend on the processing

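Gdnf, Nrtn and Etv5 had an interval under every alternative run, and under windows of 500 bp or 5 kb, midpoints, intervals above the median score and whole records they stayed the only 3 at gene ends. The shares of all protein-coding genes were then 25.3% and 32.1% (500 bp and 5 kb), 24.7% (midpoints), 14.8% (above the median score) and 30.7% (whole records). The best interval of each of these 3 genes lay over a start and scored above the median, so these alternatives were bound to keep it. The count within 50 kb depended on the flank. It was 3 of 10 with flanks of 10 or 20 kb or with nearest genes only, since Artn and Gfra3 then had none. The shares of all protein-coding genes were 36.6%, 41.8% and 27.1%. With a flank of 100 kb the count was 6 of 10, against 62.4%. Above the median score it was 4 of 10, against 34.0%. The 7 intervals read became 4 with flanks of 10 or 20 kb, with nearest genes only or above the median score, and 11 with 100 kb. The pathway count was 40 of 85 with 500 bp and 54 with 5 kb, against 25.3% and 32.1% of all protein-coding genes. It was 39 by midpoints, against 24.7%, and 30 above the median score, against 14.8%. With whole records it was 56, against 30.7%. Without read depth, the weakest binding that could have been called at the other 7 genes is unknown. No paired analysis was possible because there is 1 ChIP library and its input.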
